A study of Mus musculus with 6 samples.

Results

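The lipid droplet genes described here are Plin2, Plin3, Lpin1, Dgat1, Dgat2, Pnpla2, Abhd5 and Hilpda. They were taken by gene symbol from the mRNA tables, and all 8 were present among 11609 mRNA genes and passed the filter on low values. RNA came from N2a cells, a mouse neuroblastoma line, differentiated with 10 µM retinoic acid for 96 h. In 3 libraries the differentiated cells had received DMSO, the solvent, and in 3 libraries 5 µM RSL3 for 24 h. RSL3 blocks GPX4, the selenoenzyme that reduces lipid hydroperoxides in membranes, and so induces ferroptosis, an iron-dependent death by lipid peroxidation. Retinoic acid was thus common to both groups, and all libraries came from a single cell line. The labels do not state that replicates were separate cultures, so the p-values measure only the spread between these libraries.

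Cells store surplus fatty acids as triacylglycerol in lipid droplets, organelles that bud from the endoplasmic reticulum and carry a single layer of phospholipid. Lipin removes phosphate from phosphatidic acid, a DGAT enzyme adds the last fatty acid to the resulting diacylglycerol, perilipins coat the droplet, and the lipase ATGL with its partners opens the store again. Neurons hold few droplets at rest, and droplets can take up polyunsaturated fatty acids that would otherwise sit in membranes.

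A single library stood apart: RSL3 replicate 1 lay at 26.2 on the first principal component (47.2% of the variance). This was farther from the DMSO libraries (-13.2 to -9.46) than RSL3 replicate 2 (1.25) or 3 (7.35). Values without RSL3 replicate 1 are given where they change the call of a named lipid droplet or lipid storage gene.

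With RSL3 the mRNAs of both measured droplet coat proteins were higher, Plin3 by 1.64 times and Plin2 by 1.48 times in mean FPKM, and Lpin1 of the synthesis route was 1.3 times as high. FPKM is a fragment count scaled to transcript length and to the mapped fragments of the library. In limma across 10590 tested mRNAs, these 3 of the 8 genes rose at an adjusted p under 0.05 and 0 fell. Over all tested mRNAs 2.46% rose, 3.92% fell and 6.38% passed in either direction. The other 5 genes did not pass: Dgat2 stood lower in each RSL3 library, and Dgat1, Pnpla2, Abhd5 and Hilpda lay between 0.01 and 0.28 above DMSO on the log2(FPKM + 1) scale. The median log2 fold change of the 8 genes was 0.22, beside -0.031 over all tested mRNAs. An unadjusted p under 0.05 in limma was reached by 4 of the 8 genes and by 2555 of the 10590 tested mRNAs. The 3 RSL3 values were all above the 3 DMSO values for 4 of the 8 genes and all below for 1. Among tested mRNAs this held for 13.4% and 19.6%, 33% in either direction. In bulk RNA, more or fewer cells with a transcript and more or less of it per cell cannot be told apart.

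**Figure D1:**
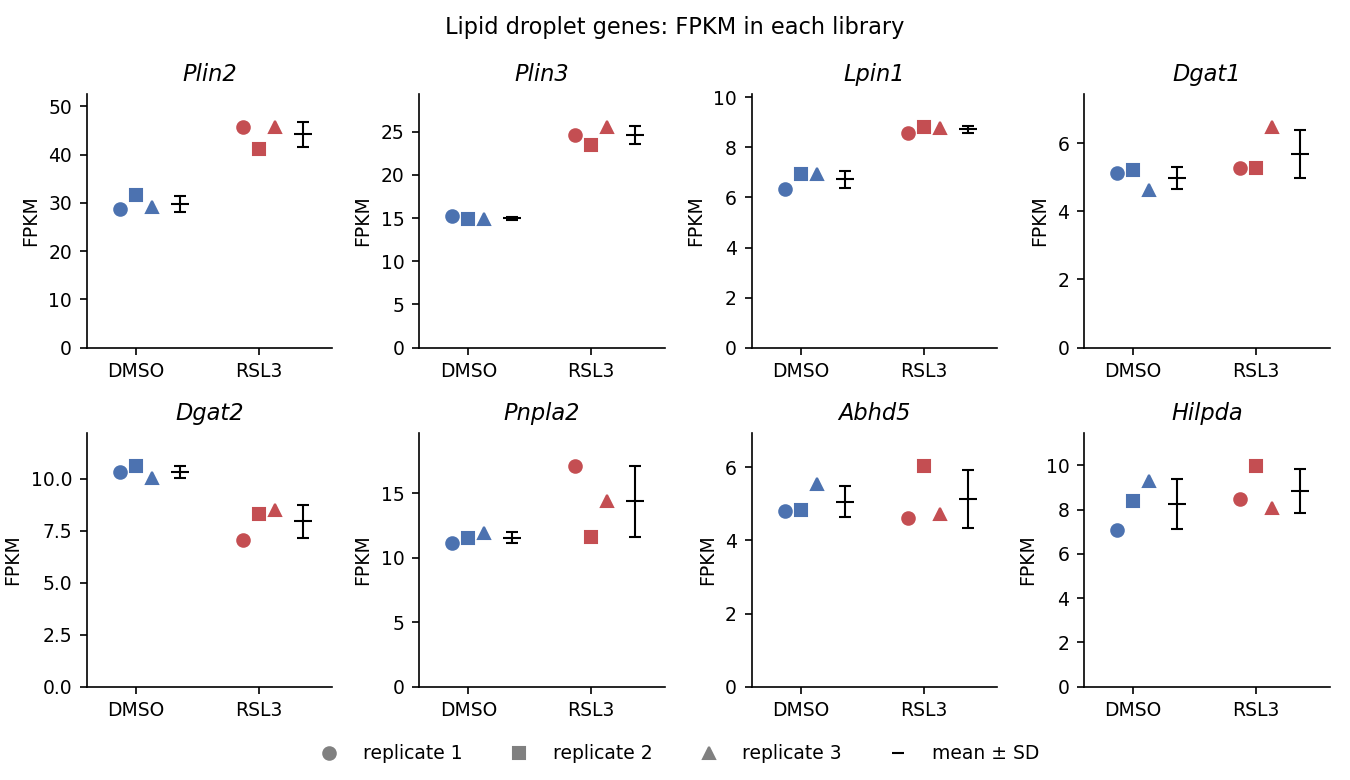
FPKM of the 8 lipid droplet genes (vertical axes, each from 0) in the 3 DMSO and 3 RSL3 libraries; each point is a library, and the bar beside it gives the mean ± SD. Plin2, Plin3, Lpin1 and Dgat1 lie higher in all RSL3 libraries, Dgat2 lies lower, and the groups overlap for Pnpla2, Abhd5 and Hilpda.

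To set the genes that rose beside their start regions, the 250 bases before the RefSeq transcript start (GRCm38.p6, 5′ to 3′ on the gene's own strand) are given for Plin2, Plin3 and Lpin1, which rose, and for Hilpda, a textbook hypoxia-induced gene that did not pass. They are Plin2 at chr4:86670060-86670309 (minus strand), Plin3 at chr17:56290512-56290761 (minus strand), Lpin1 at chr12:16610967-16611216 (minus strand) and the downstream of the RefSeq starts of Hilpda at chr6:29272376-29272625 (plus strand). Capitals mark matches to the searched motifs.
Plin2: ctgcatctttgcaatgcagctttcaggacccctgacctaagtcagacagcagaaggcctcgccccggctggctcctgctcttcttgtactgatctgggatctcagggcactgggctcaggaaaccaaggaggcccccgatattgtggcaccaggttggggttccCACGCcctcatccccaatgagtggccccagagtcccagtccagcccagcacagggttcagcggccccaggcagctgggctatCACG
Plin3: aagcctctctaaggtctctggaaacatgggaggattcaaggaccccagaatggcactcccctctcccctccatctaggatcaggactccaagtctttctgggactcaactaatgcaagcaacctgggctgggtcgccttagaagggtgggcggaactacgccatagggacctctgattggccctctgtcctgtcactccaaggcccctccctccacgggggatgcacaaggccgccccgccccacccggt
Lpin1: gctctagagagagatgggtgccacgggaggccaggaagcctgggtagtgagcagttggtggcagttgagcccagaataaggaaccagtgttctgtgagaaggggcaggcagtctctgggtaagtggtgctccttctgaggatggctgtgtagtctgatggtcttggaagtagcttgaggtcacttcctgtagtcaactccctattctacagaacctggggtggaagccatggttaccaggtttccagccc
Hilpda: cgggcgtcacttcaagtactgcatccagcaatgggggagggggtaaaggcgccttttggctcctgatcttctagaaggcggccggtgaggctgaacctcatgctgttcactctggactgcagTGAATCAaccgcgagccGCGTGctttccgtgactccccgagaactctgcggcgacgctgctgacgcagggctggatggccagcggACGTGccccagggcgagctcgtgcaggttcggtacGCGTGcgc

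Windows from 250 bases before to 50 bases after the start were searched on both strands for an NRF2 element (TGACNNNGC), a hypoxia element (ACGTG or GCGTG), a PPAR element (a direct repeat with 1 base between), an E-box (CACGTG, which holds ACGTG) and an AP-1 element (TGANTCA). Among 32851 such windows of mouse genes, 12.4% held the NRF2 letters, 43.8% the hypoxia letters, 0.0396% the PPAR letters, 7.15% the E-box and 7.81% the AP-1 letters. The Plin2 window held CACGC, the hypoxia letters on the opposite strand, from base -86, and an E-box from base -4 that runs over the start, so that the line above shows only its first bases. The Hilpda window held the hypoxia letters at -111, -43 and -8 and the AP-1 letters TGAATCA at -128. The windows of Plin3, Lpin1 and Pnpla2 held none of the 5 motifs, and that of Abhd5 held GCGTG at -18. The NRF2 and PPAR letters were in no window of these 6 genes, which says only that these exact letters are not there. In GENCODE M21 the Plin3 gene (56277476 to 56292873) begins upstream of the RefSeq start used here, 56290511, so its window covers 1 of its possible starts. A match describes the letters and is no evidence of binding.

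The perilipins are the coat. Plin2 (ENSMUSG00000028494.12, chromosome 4, 86648386 to 86670060, minus strand) encodes the perilipin found on droplets of most cell types, a protein that is degraded when it has no droplet to bind. It was the most abundant of the 8 genes per length, at 28.7, 31.7 and 29.1 FPKM in DMSO replicates 1 to 3 and at 45.6, 41.3 and 45.8 FPKM in RSL3 replicates 1 to 3. The lowest RSL3 library thus stood well above the highest DMSO library. Plin2 rose from 29.8 ± 1.64 to 44.2 ± 2.58 FPKM (SD, n = 3), a log2 fold change of 0.55 ± 0.07 (SE; limma, adjusted p = 0.00824). Its call ended without DMSO replicate 3 (log2 fold change 0.54, adjusted p = 0.0537) and held in the other 5 fits without a single library.

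Plin3 (ENSMUSG00000024197.9, chromosome 17, 56277476 to 56292873, minus strand) encodes a perilipin that is soluble in the cytosol and moves onto newly formed droplets. It stood at 15.2, 14.9 and 14.9 FPKM with DMSO, as against 24.7, 23.5 and 25.6 FPKM with RSL3. The DMSO libraries hardly differed, and all RSL3 libraries were far above them. Plin3 rose from 15 ± 0.18 to 24.6 ± 1.04 FPKM (SD, n = 3; log2 fold change 0.68 ± 0.06 SE, adjusted p = 0.00351 in limma). By p it was 29th and by size of rise 49th of the 10590 tested mRNAs, and Plin2 was 120th in both orders. The Plin3 call held in all 15 alternatives, with log2 fold changes between 0.65 and 0.73.

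Together the coat genes went from 44.8 ± 1.53 to 68.8 ± 3.55 summed FPKM (SD, n = 3). The ratio of Plin2 to Plin3 was 1.89, 2.13 and 1.96 with DMSO as against 1.85, 1.75 and 1.79 with RSL3, so Plin2 stayed the more abundant coat mRNA in each library. The groups of this ratio did not overlap, although their nearest values, 1.89 and 1.85, are close. The remaining perilipin genes Plin1, Plin4 and Plin5 and the droplet fusion genes Cidea, Cideb and Cidec, known from fat, muscle and liver, were not listed. The tables list only genes whose larger group mean was at least 0.5 FPKM.

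**Figure D2:**
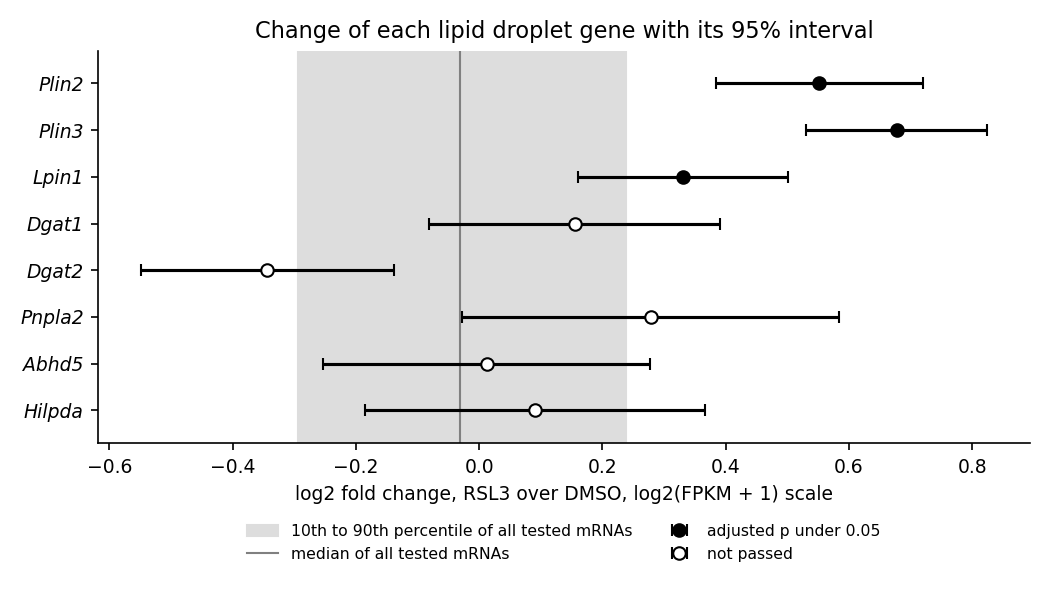
Log2 fold change of each lipid droplet gene, RSL3 over DMSO on the log2(FPKM + 1) scale (horizontal axis), with the 95% interval of the limma fit; filled points passed an adjusted p of 0.05, and the grey band spans the 10th to 90th percentile of all tested mRNAs (-0.29 to 0.24). Plin2, Plin3, Lpin1 and Pnpla2 lie right of the band and Dgat2 lies left of it. The intervals of Dgat1, Pnpla2, Abhd5 and Hilpda include 0.

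In triacylglycerol synthesis the 3 genes differed in direction. Lpin1 (ENSMUSG00000020593.15, chromosome 12, 16535669 to 16610966, minus strand) encodes lipin 1, the phosphatidic acid phosphatase that makes diacylglycerol and also acts in the nucleus as a coregulator of transcription. It was measured at 6.34, 6.93 and 6.92 FPKM with DMSO and at 8.56, 8.83 and 8.76 FPKM with RSL3. The RSL3 libraries were close to each other and all higher. Lpin1 rose from 6.73 ± 0.34 to 8.72 ± 0.14 FPKM (SD, n = 3; log2 fold change 0.33 ± 0.07 SE, adjusted p = 0.044 in limma). This call was near the threshold: of the fits without a single library it passed only in that without RSL3 replicate 1, and the adjusted p reached 0.198 without DMSO replicate 1, where the log2 fold change was 0.29.

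Dgat2 (ENSMUSG00000030747.5, chromosome 7, 99153658 to 99182719, minus strand) encodes the acyltransferase that works with newly made fatty acids and sits on droplets as well as on the endoplasmic reticulum. Its values were 10.3, 10.6 and 10.0 FPKM with DMSO and 7.05, 8.31 and 8.53 FPKM with RSL3. No RSL3 library reached a DMSO library, and RSL3 replicate 1 was the lowest. Means were 10.3 ± 0.30 and 7.96 ± 0.80 FPKM (SD, n = 3), and the log2 fold change of -0.34 ± 0.09 SE did not pass (adjusted p = 0.0646 in limma). It did pass under median-ratio scaling (-0.32, adjusted p = 0.0438), quantile normalization (-0.31, adjusted p = 0.0405) and without RSL3 replicate 1 (-0.27, adjusted p = 0.0342), and the adjusted p over all its alternatives ran from 0.0342 to 0.219.

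Dgat1 (ENSMUSG00000022555.11, chromosome 15, 76502015 to 76511953, minus strand) encodes the unrelated acyltransferase of the endoplasmic reticulum that re-esterifies fatty acids from outside or from breakdown. It lay at 5.12, 5.2 and 4.61 FPKM with DMSO and at 5.26, 5.27 and 6.48 FPKM with RSL3. Only RSL3 replicate 3 stood clearly apart, and the lowest RSL3 value was just above the highest DMSO value. Dgat1 did not pass (log2 fold change 0.15 ± 0.10 SE, 95% interval -0.081 to 0.39, adjusted p = 0.396 in limma).

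The balance of the 2 acyltransferase mRNAs differed between the groups. Dgat2 was 2.02, 2.05 and 2.18 times Dgat1 with DMSO, but 1.34, 1.58 and 1.32 times Dgat1 with RSL3. The mean ratio was 2.08 ± 0.08 and 1.41 ± 0.14 (SD, n = 3), with no overlap. Their sum went from 15.3 ± 0.60 to 13.6 ± 1.35 FPKM, and there the groups overlapped. No p is given for these sums and ratios, since the genes were chosen with earlier results of these data known.

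**Figure D3:**
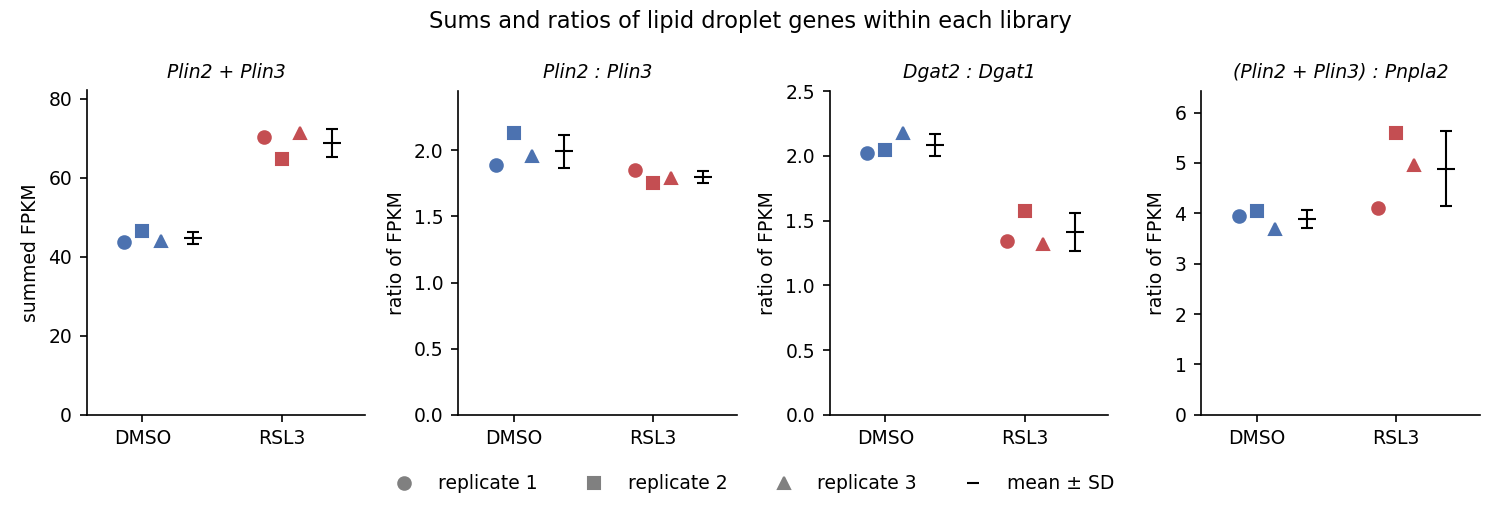
Summed FPKM of Plin2 and Plin3 and 3 ratios of FPKM within a library (vertical axes, each from 0), for 3 DMSO and 3 RSL3 libraries, with the mean ± SD at the side. The coat sum lies between 64.8 and 71.4 with RSL3 against 43.9 to 46.6 with DMSO, and Dgat2 to Dgat1 is lower in each RSL3 library.

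Markers of other cell types were read in the same libraries. Of 18 liver markers all were listed, 14 were tested and all 14 fell, beside 3.92% of all tested mRNAs. Their median log2 fold change was -1.18. Their summed level was 83.0, 115.6 and 101.2 FPKM with DMSO and 35.5, 30.3 and 19.3 FPKM with RSL3. The albumin gene Alb had 28.1 ± 5.21 FPKM in DMSO libraries and 8.15 ± 3.48 in RSL3 libraries (SD, n = 3). Liver also expresses Dgat2 and Plin2, and the part of liver transcripts in the values of these genes was not tested. Of 8 adipocyte markers none was listed, among them Adipoq and Fabp4, and of 8 macrophage markers only Cd68 was, at 0.37 ± 0.04 and 0.60 ± 0.005 FPKM.

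Breakdown of the store was represented by a lipase, its activator and its inhibitor. Pnpla2 (ENSMUSG00000025509.15, chromosome 7, 141455198 to 141460743, plus strand) encodes ATGL, which takes the first fatty acid off triacylglycerol. It stood at 11.1, 11.5 and 11.9 FPKM with DMSO and at 17.1, 11.6 and 14.4 FPKM with RSL3. RSL3 replicate 2 lay among the DMSO libraries, and replicates 1 and 3 lay above them. Means were 11.5 ± 0.42 and 14.4 ± 2.78 FPKM (SD, n = 3), and the log2 fold change of 0.28 ± 0.13 SE did not pass (95% interval -0.027 to 0.58, adjusted p = 0.241 in limma). It was 0.15 without RSL3 replicate 1 (adjusted p = 0.321) and 0.42 without RSL3 replicate 2 (adjusted p = 0.0535).

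Abhd5 (ENSMUSG00000032540.16, chromosome 9, 122351608 to 122381524, plus strand) encodes CGI-58, the protein that switches ATGL on when it is released from perilipin. Its values were 4.81, 4.83 and 5.54 FPKM with DMSO and 4.62, 6.05 and 4.73 FPKM with RSL3, and the groups overlapped. The log2 fold change was 0.012 ± 0.11 SE (95% interval -0.25 to 0.28, adjusted p = 0.965 in limma). Hilpda (ENSMUSG00000043421.8, chromosome 6, 29272488 to 29275446, plus strand) encodes a small hypoxia-induced droplet protein that inhibits ATGL. It lay at 7.10, 8.38 and 9.31 FPKM with DMSO and at 8.48, 9.99 and 8.08 FPKM with RSL3, a log2 fold change of 0.09 ± 0.12 SE (95% interval -0.19 to 0.37, adjusted p = 0.689 in limma). Neither gene passed, and both intervals span 0, so changes within these bounds in either direction remain possible.

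The ratio of coat to lipase mRNA, the sum of Plin2 and Plin3 over Pnpla2, was 3.95, 4.04 and 3.68 with DMSO and 4.10, 5.60 and 4.96 with RSL3. All RSL3 libraries were higher, replicate 1 by little. Pnpla2 over Hilpda was 1.41 ± 0.14 with DMSO and 1.65 ± 0.44 with RSL3 (SD, n = 3), and Pnpla2 over Abhd5 was 2.28 ± 0.12 and 2.89 ± 0.91, both with overlapping groups.

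The RSL3 libraries differed among themselves along the GC content of transcripts. Across 10578 genes, the deviation from the group mean correlated with GC content at 0.649, -0.611 and -0.237 in RSL3 replicates 1 to 3 and between -0.066 and 0.112 in the DMSO libraries; genes are not independent replicates. Pnpla2, whose longest coding transcript has 57.0% GC, was highest in RSL3 replicate 1 and lowest in replicate 2, and Abhd5, with 45.7% GC, was lowest in replicate 1 and highest in replicate 2. The other GC-rich genes did not follow this order: Dgat2, with 56.3% GC, was lowest in replicate 1, and Dgat1, with 56.5% GC, was nearly equal in replicates 1 and 2 and highest in replicate 3. Hilpda has 51.1% GC, and Plin2, Plin3 and Lpin1 have 52.1%, 51.1% and 50.1% GC. With length and GC trends removed, Plin2, Plin3 and Lpin1 passed at log2 fold changes of 0.56, 0.66 and 0.32. Hilpda (0.14, adjusted p = 0.466 in limma) and Pnpla2 (0.19, adjusted p = 0.15) did not pass in that fit.

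In order of mean level with DMSO the genes ran Plin2, Plin3, Pnpla2, Dgat2, Hilpda, Lpin1, Abhd5 and Dgat1. The ranges of neighbours overlapped only for Abhd5 and Dgat1, at 5.06 ± 0.42 and 4.98 ± 0.32 FPKM (SD, n = 3). With RSL3 the order was Plin2, Plin3, Pnpla2, Hilpda, Lpin1, Dgat2, Dgat1 and Abhd5, with overlaps of Hilpda with Lpin1 and of Dgat1 with Abhd5. Dgat2 thus stood above Hilpda and Lpin1 with DMSO and below both in mean level with RSL3. Plin2 with DMSO was higher than 87.5% of all listed mRNAs, and Dgat1 higher than 42.4%.

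Around these genes, 6 lists of lipid storage genes held 87 genes, of which 66 were listed and 62 tested. Only 3 of the 62 passed, all higher (4.84%, beside 6.38% of all tested mRNAs): the transcription factor genes Pparg and Rxra and the fatty acid transporter gene Slc27a1. The number that passed was 0 without each of DMSO replicates 1, 2 and 3 and RSL3 replicate 3, and 10 without RSL3 replicate 1. Pparg, the master regulator of fat storage, went from 5.72 ± 0.68 to 8.81 ± 0.28 FPKM (SD, n = 3; log2 fold change 0.55 ± 0.10 SE, adjusted p = 0.0197 in limma). Rxra, which encodes the partner that PPARs bind DNA with, stood at 1.39 ± 0.15 and 2.10 ± 0.10 FPKM (0.38 ± 0.08, adjusted p = 0.0429). Of 11 tested transcription factors of lipid storage 2 rose and 0 fell, beside 2.46% and 3.92% of all tested mRNAs, with a median of 0.19. Ppard (0.29, adjusted p = 0.188), Srebf1 (0.30, adjusted p = 0.0783) and Nfe2l2, which encodes NRF2 (0.19, adjusted p = 0.250), did not pass. Without RSL3 replicate 1, Nfe2l2 did pass (0.28, adjusted p = 0.0265 in limma).

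Slc27a1, which imports and activates fatty acids, went from 1.92 ± 0.08 to 3.04 ± 0.24 FPKM (SD, n = 3; log2 fold change 0.47 ± 0.08 SE, adjusted p = 0.0209 in limma). With length and GC trends removed, Slc27a1 stood at 0.35 (adjusted p = 0.067) and Rxra at 0.29 (adjusted p = 0.0613), while Pparg passed at 0.58 (adjusted p = 0.00801). In fatty acid uptake and binding 1 of 7 tested genes rose and 0 fell, beside 2.46% and 3.92% of all tested mRNAs, with a median of 0.043. The fatty acid and acyl-CoA binding protein genes Fabp5 and Dbi stood lower in all RSL3 libraries without passing (-0.20, adjusted p = 0.117, and -0.19, adjusted p = 0.174).

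None of 8 tested PPAR targets passed (median 0.041). The mitochondrial carnitine carrier gene Slc25a20 was nearest, at 11 ± 0.24 and 8.43 ± 0.73 FPKM (SD, n = 3), with -0.35 ± 0.08 (adjusted p = 0.05003 in limma). It passed under median-ratio scaling (adjusted p = 0.039), quantile normalization (0.0404), the 5 FPKM filter (0.0411) and with length and GC trends removed (0.0354). It also passed without RSL3 replicate 1 (-0.29, adjusted p = 0.0261) and without RSL3 replicate 2 (adjusted p = 0.048). With the replicate block, or without RSL3 replicate 3 or any single DMSO library, it did not pass. Cpt1a, which loads fatty acids onto carnitine for oxidation, stood at 37.3 ± 1.05 and 34.0 ± 1.24 FPKM (-0.13, adjusted p = 0.232). Angptl4, a fasting-induced lipase inhibitor, stood at 1.54 ± 0.15 and 1.69 ± 0.125 FPKM (0.083, adjusted p = 0.606).

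Of 14 tested genes of glycerolipid and sterol ester synthesis 0 passed (median 0.016). The entry enzymes Gpam and Gpat3, glycerol-3-phosphate acyltransferases, lay below DMSO in all RSL3 libraries (-0.16 and -0.26, adjusted p = 0.299 and 0.171), and Agpat4, of the following step, lay above (0.28, adjusted p = 0.0535). Agpat4 passed in some alternatives, among them the fit without RSL3 replicate 1 (0.28, adjusted p = 0.0369 in limma). Lpin2, a paralogue of Lpin1, was at 2.19 ± 0.06 and 2.63 ± 0.15 FPKM (0.19, adjusted p = 0.200). Of 14 tested genes of droplet coat and formation 0 passed (median 0.036), and the seipin gene Bscl2, whose product sits where droplets bud, stood at 11 ± 0.39 and 13.8 ± 1.5 FPKM (0.30, adjusted p = 0.096). Of 8 tested genes of droplet lipid breakdown 0 passed (median 0.058). The lysosomal acid lipase gene Lipa, at 3.51 ± 0.35 and 5.01 ± 0.66 FPKM, had the highest value there (0.41, adjusted p = 0.0728), with an adjusted p of 0.0386 under median-ratio scaling and 0.014 with trends removed. Lipa also passed under quantile normalization (adjusted p = 0.0361) and without RSL3 replicate 1 (0.50, adjusted p = 0.0193 in limma).

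**Figure D4:**
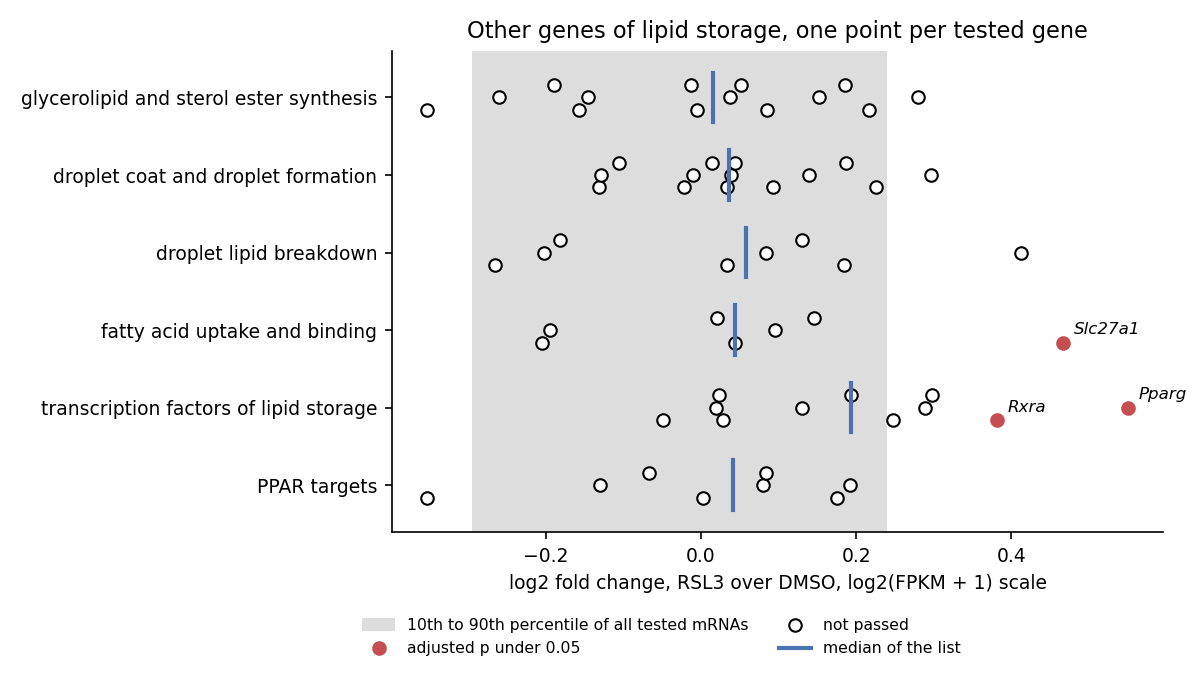
Log2 fold change, RSL3 over DMSO on the log2(FPKM + 1) scale (horizontal axis), of each tested gene in 6 lists of lipid storage (rows; points are spread vertically for sight only), with the median of each list as a bar and the 10th to 90th percentile of all tested mRNAs in grey. Slc27a1, Rxra and Pparg are the 3 points past an adjusted p of 0.05, and the list medians lie between 0.016 and 0.19.

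The mRNAs whose log2 values followed those of the risen genes most closely over the 6 libraries were picked among 6679 others with a mean of at least 5 FPKM. For Plin2 they were the desaturase gene Fads2, Gsto1 and Tinagl1 (Pearson r between 0.9950 and 0.9987). For Plin3 they were Tbc1d9b, Sox4 and Mafk (0.9969 to 0.9971), and for Lpin1 Uap1l1, Abcc5 and Unc93b1 (0.9924 to 0.9968). These r describe 6 libraries, and all these genes share the libraries and a difference between the 2 groups. Fads2 went from 91.9 ± 2.86 to 113 ± 4.21 FPKM (SD, n = 3). Plin2, Plin3 and Lpin1 correlated with each other at 0.96 to 0.981 over the same 6 libraries.

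**Figure D5:**
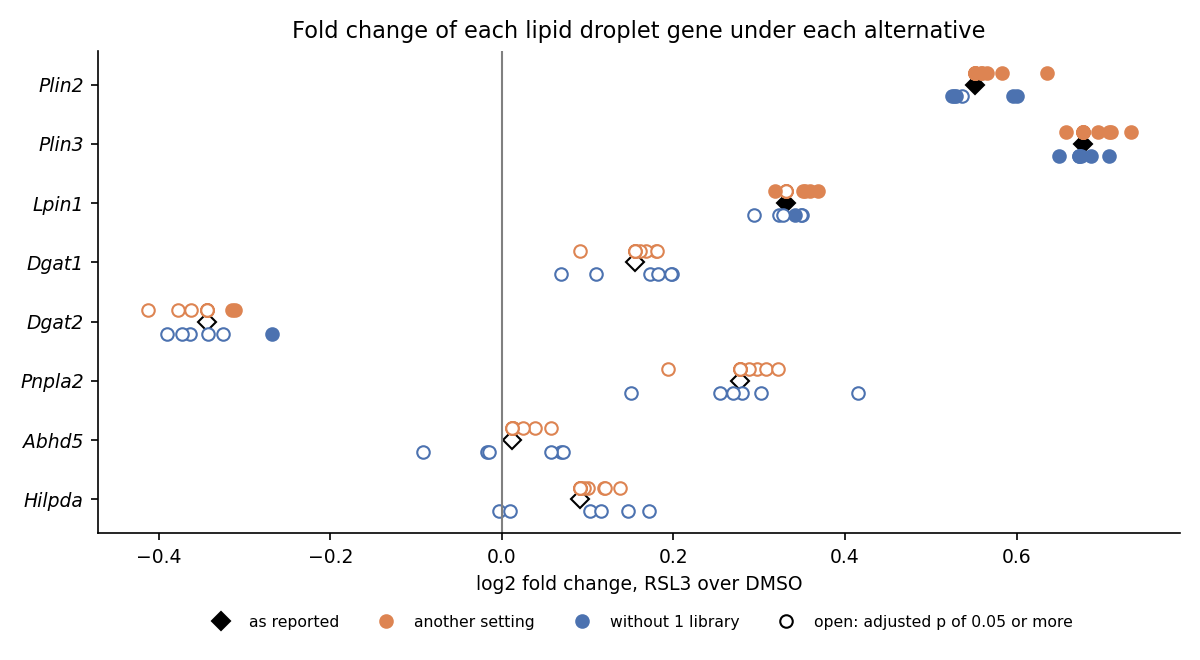
Log2 fold change of each lipid droplet gene (horizontal axis) as reported (diamond), under other settings (orange) and without 1 library (blue); filled symbols passed an adjusted p of 0.05. Plin3 passes throughout, Plin2 in all but 1 fit, Lpin1 in 9 of 15 alternatives and Dgat2 in 3, while Dgat1, Pnpla2, Abhd5 and Hilpda pass in none.

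The labels call the cells neurons. Of 10 neuron markers 8 were listed and tested, and Dcx and Rbfox3 were not listed. Their median log2 fold change was -0.23, beside -0.031 over all tested mRNAs. In all RSL3 libraries 4 of the 8 lay below DMSO and 1 above, beside 19.6% and 13.4% of all tested mRNAs. Only 1 of the 8 passed, beside 6.38% of all tested mRNAs. This was the growth cone gene Gap43 (37.3 ± 1.49 and 28.8 ± 1.01 FPKM, SD, n = 3), at -0.37 (adjusted p = 0.0181 in limma). Elavl4 was the lowest in log2 fold change without passing (-0.61, adjusted p = 0.0735), and Tubb3 stood at 116 ± 1.02 and 115 ± 2.25 FPKM. All 8 noradrenergic neuroblast markers were listed, among them Hand2 at 119 ± 2.95 and 101 ± 14.9 FPKM, and the 7 tested had a median log2 fold change of -0.25. Summed mRNA values were between 220605 and 225295 FPKM in the DMSO libraries and between 200135 and 213765 FPKM in the RSL3 libraries.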

How the data were processed

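RNA of 6 libraries was measured as mRNA, lncRNA and circRNA; only the mRNA tables were used. The authors deposited FPKM per gene and library; per the submitters' processing notes the tools were cutadapt, HISAT2 and StringTie 1.3.3 and the build GRCm38. Per the labels' protocols, a poly(A) module and a stranded kit were used. The sources used here name no annotation release and no filter on low values. Read depth is unknown, since low values showed no common step between libraries (4 of 248 ratios of low values repeated), so no counting interval is given.

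RSL3 and DMSO libraries were compared on log2(FPKM + 1) in limma 3.58.1 under R 4.3.3, two-sided and with a mean-variance trend. Tested were genes that reached 1 FPKM in 3 or more libraries, with Benjamini-Hochberg adjustment over all of them and a threshold of 0.05. The pseudocount of 1 understates changes of low genes. The fit was tested on simulated data. GENCODE M21 gave positions, lengths and GC content, matched by gene ID without version (11595 of 11609), and promoters from RefSeq, found for 6 of the 8 genes. Alternatives were pseudocounts, filters, scalings, no variance trend, the replicate number as a block, removal of length and GC trends, and each library left out, with the tested genes kept. The genes and lists were chosen with earlier results of these data known. Named are the 8 genes, each gene of 6 lists that passed, and the 3 mRNAs most like each member that passed; other genes were named after their values were seen.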

Additional observations from a re-analysis of the deposited data

How the results depend on the processing

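The count of the 8 genes that passed was 3 as reported and between 1 and 4 without single libraries (1 without DMSO replicate 3). The count of lipid storage genes in the 6 lists was 3 as reported, 5 with median-ratio scaling, 6 with quantile normalization, 0 with the replicate block, and between 0 and 10 without single libraries. Of all mRNAs 676 passed as reported, 253 with the replicate block, 1307 with length and GC trends removed, and between 145 and 1299 without single libraries. After quantile normalization 350 mRNAs were higher and 329 lower, against 261 and 415 as reported. The cause of these shifts was not tested. The log2 fold change of Abhd5 ran from -0.092 to 0.0711 without single libraries and was below 0 in the fits lacking DMSO replicate 1, DMSO replicate 2 and RSL3 replicate 2. That of Hilpda ran from -0.00297, without DMSO replicate 1, to 0.172. The direction of the other 6 genes was kept in every alternative run. The labels do not say that equal replicate numbers mark pairs; deviations of same-numbered libraries correlated across genes at -0.145, 0.0487 and -0.0623, and not every library correlated best with its own number. With the number as a block, Plin2 and Plin3 passed and Lpin1 did not (adjusted p = 0.13). Abhd5 was not tested under the stricter filter of 5 FPKM in 3 libraries, nor were Rxra and Slc27a1.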

Other observations

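Some lipid storage genes were listed at levels too low for the test, and their values are given without one. Lpin3, a further lipin gene, had 0.42 ± 0.05 FPKM in DMSO libraries and 0.55 ± 0.03 in RSL3 libraries (SD, n = 3). The lipase gene Pnpla3 had 0.81 ± 0.04 and 0.97 ± 0.07 FPKM, and the transcription factor gene Ppara 0.33 ± 0.06 and 0.53 ± 0.14 FPKM. Each was higher in all RSL3 libraries.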
